A study of Mus musculus with 3 samples.

Results

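Solute carriers that move glucose, amino acids, and related small molecules across membranes were examined in the embryonic region of the mouse embryo at the early headfold (EHF) stage. Members were taken by name, as every gene symbol of 9 families: *Slc2a* and *Slc5a* (sugars), *Slc1a*, *Slc3a*, *Slc7a*, *Slc6a*, *Slc36a*, and *Slc38a* (mainly amino acids), and *Slc16a* (monocarboxylates). This gave 88 of 30854 symbols. The names are wider than glucose and amino acids, because some members carry vitamins, iodide, choline, creatine, urate, or monoamines.

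The study, on left-right patterning and the gut endoderm, profiled wild-type embryos to learn which connexin genes they express. Embryos were cut at the junction with the extraembryonic region, and total RNA of the embryonic part was hybridized to Illumina Mouse-6 bead arrays. There were 3 arrays, replicates 1, 2, and 3, all wild-type and untreated. Labels give the strain as Cd-1 and extraction with a column kit, the methods give ICR and TRIzol, and the design text speaks of 3 samples in a well without saying whether an array holds 1 embryo or a pool, so the spread between arrays may be technical in part. With 1 group, the design allows a comparison of each gene with the background of its own array, and not of 1 gene with another, because probes differ in how well they hybridize. In whole tissue, fewer cells of a type and less RNA per cell cannot be told apart.

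The tissue was checked against marker lists before the transporters were read. Of 12 markers of the embryonic region, 10 had a detection p under 0.01 on all 3 arrays, among them *T* and *Otx2*. *Six3* had it on 1 array and *Hesx1* on none. Of all symbols, 20.6% had a detection p under 0.01 on all 3 arrays. Of 14 visceral endoderm markers, 13 met this threshold on all 3 arrays, with mean log2 signals of up to 11.45 (*Spink3*). *Afp* met it on 2. At headfold stages the paper saw *Apoc2* only in extraembryonic visceral endoderm, and here *Apoc2* was called on all 3 arrays. Of 12 extraembryonic ectoderm markers, 5 were called on all 3 (*Bmp4*, *Cdx2*, *Ets2*, *Rhox5*, and *Tfap2c*). *Ascl2*, *Elf5*, *Eomes*, *Gcm1*, and *Tpbpa* were called on none. The share of extraembryonic tissue was not tested, so transporter signals are not assigned to a cell layer. None of 5 blood markers met the threshold on any array, and the embryonic globins *Hba-x*, *Hbb-bh1*, and *Hbb-y* were among them. For a single probe, the detection p steps by 1 in 936 and ranks the signal among the negative controls on its array. Over all symbols it was under 0.01 for 29.2%, 26.6%, and 23.3% on replicates 1, 2, and 3.

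Facilitative glucose carriers of the *Slc2a* family let glucose move down its gradient, whereas most *Slc5a* carriers use the sodium gradient. Amino acid carriers fall into exchangers, sodium-coupled importers, and proton-coupled carriers. Several *Slc7a* proteins are light chains that reach the membrane only when bound to a heavy chain of the *Slc3a* family. Monocarboxylate carriers of the *Slc16a* family move lactate, pyruvate, and ketone bodies, and some need the glycoproteins basigin or embigin as partners. The gastrulating embryo is known for a high use of glucose through glycolysis.

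Of the 88 transporters, 14 met a detection p under 0.01 on all 3 arrays, 6 on 2 arrays, 11 on 1 array, and 57 on none. The 14 make up 15.9% of the members, where 20.6% of all symbols were called by the same rule. By this rule, the members as a whole were thus not called more often than the genes of the array. By array, 23, 25, and 17 members met the threshold on replicates 1, 2, and 3. The family with the most calls was *Slc38a*, with 4 of 10 on all arrays, followed by *Slc2a* (2 of 11), *Slc1a* (2 of 7), *Slc6a* (2 of 18), and *Slc16a* (2 of 13). *Slc5a* had 1 of 11 and *Slc7a* 1 of 14. The single *Slc3a* symbol and the 3 *Slc36a* symbols had none. The order of families depended on the rule, since the limma test described below called 5 *Slc7a* and 5 *Slc38a* symbols, and 4 *Slc7a* symbols had a signal above background on all arrays, beside 5 of *Slc38a*.

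**Figure D1:**
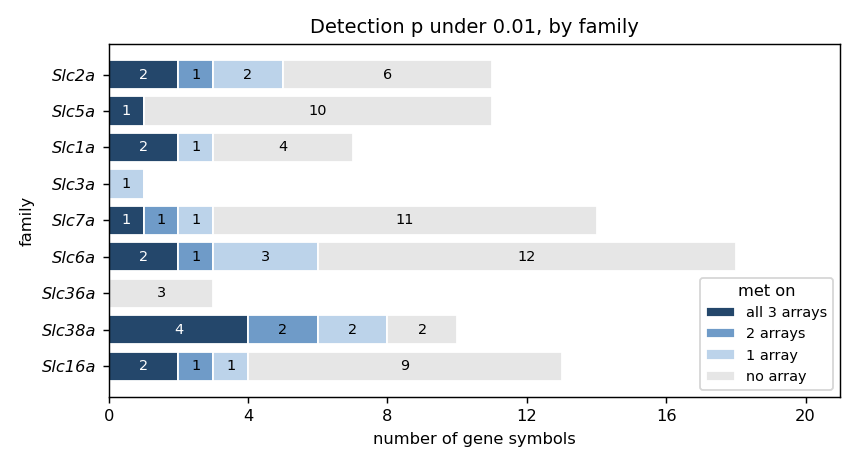
Number of gene symbols per family (x axis), split by the number of arrays on which the detection p was under 0.01. *Slc38a* had 4 of 10 symbols called on all 3 arrays, and 10 of 11 *Slc5a* symbols were called on no array.

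The glucose carriers *Slc2a1* and *Slc2a3* of the *Slc2a* family gave signals far above background. *Slc2a1* encodes GLUT1, the basal glucose carrier of most cells, and had log2 signals as deposited of 12.49, 11.88, and 11.24 on replicates 1, 2, and 3. *Slc2a3* encodes GLUT3, a carrier best known in neurons and placenta, and had log2 signals of 12.26, 12.28, and 11.62. All 6 signals lay above the background level of their array, which was 6.69, 6.66, and 6.58 on replicates 1, 2, and 3. The background level is the lowest signal at which a single probe reached a detection p above 0 and under 0.01. A called symbol with 1 probe lies at or above it because of how it was set, so only the size of the excess is informative. The mean was 5.23 above that level for *Slc2a1* (SD of the signal 0.63, n = 3) and 5.41 for *Slc2a3* (SD 0.37, n = 3), both on the log2 scale, so both differences from background were larger than the spread between arrays. Replicate 3 was the lowest array for both genes, as it was on the deposited scale for all 14 called members and for 5937 of 6357 called symbols, so the order of arrays is described below only after normalization.

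The other glucose carriers stayed close to background. *Slc2a2*, the carrier of liver and pancreatic beta cells, had log2 signals of 6.72, 6.85, and 6.54 and met the threshold on replicates 1 and 2 (detection p of 0.00911 and 0.00246) but not on replicate 3 (0.063). *Slc2a4*, the insulin-responsive carrier of muscle and fat, had log2 signals of 6.70, 6.39, and 6.52 and met it on replicate 1 alone. *Slc2a10* had log2 signals of 6.71, 6.54, and 6.47, with detection p-values of 0.00878, 0.0331, and 0.0264. These 3 genes were called on some arrays and not on others. Relative to the background level, their mean log2 signals were 0.06 for *Slc2a2*, -0.10 for *Slc2a4*, and -0.07 for *Slc2a10*. The fructose carrier *Slc2a5* averaged 6.45 on the log2 scale (SD 0.06, n = 3) and was called on no array, as were the other 5 symbols of the family.

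Among the sodium-coupled *Slc5a* carriers the only symbol called was *Slc5a6*, which is no sugar carrier but takes up biotin and pantothenate. Its log2 signals were 8.05, 8.07, and 7.33, with a detection p of 0 on each array. All 3 signals exceeded the background level of their array, by a mean of 1.17 on the log2 scale. *Slc5a1* and *Slc5a2*, the sodium-glucose carriers of gut and kidney, averaged 6.43 (SD 0.06, n = 3) and 6.40 (SD 0.17, n = 3) on the log2 scale and were called on no array. Neither could be told from the negative controls at this precision, which does not show that they were absent.

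**Figure D2:**
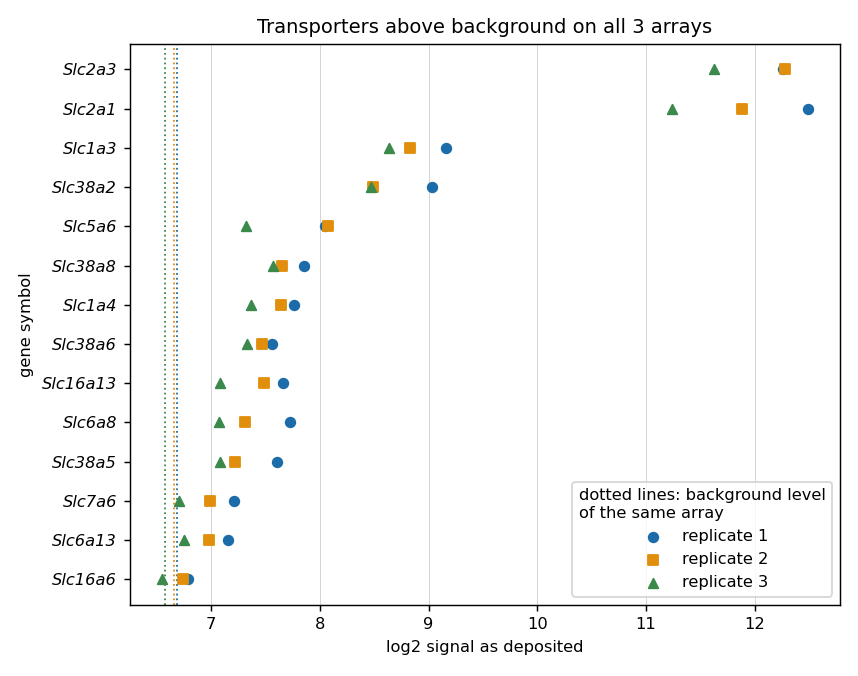
Deposited log2 signal (x axis) of the 14 transporters called on all 3 arrays, with 1 point per array and a dotted line at the background level of each array. *Slc2a1* and *Slc2a3* lie between 11.24 and 12.49 and *Slc16a6* lies at the background lines. Genes are sorted by signal for reading only, since signals of different probes give no order of abundance.

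The proximal promoters of 3 genes called on every array are shown because they differ in CpG content although each gene was above background, and they were chosen after these values had been seen. They are the 250 bases before the annotated start in RefSeq (GRCm38.p6), written 5′ to 3′ on the strand of the gene, with CpG pairs in capitals. *Slc2a1* lies at chr4:119108495-119108744 on the plus strand, *Slc1a3* at chr15:8710808-8711057 on the minus strand, and *Slc38a2* at chr15:96699729-96699978 on the minus strand.
Slc2a1: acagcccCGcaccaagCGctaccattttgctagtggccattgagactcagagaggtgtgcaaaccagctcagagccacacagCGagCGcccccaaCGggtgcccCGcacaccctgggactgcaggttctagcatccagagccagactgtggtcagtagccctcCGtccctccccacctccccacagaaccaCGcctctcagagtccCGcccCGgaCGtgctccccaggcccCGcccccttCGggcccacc
Slc1a3: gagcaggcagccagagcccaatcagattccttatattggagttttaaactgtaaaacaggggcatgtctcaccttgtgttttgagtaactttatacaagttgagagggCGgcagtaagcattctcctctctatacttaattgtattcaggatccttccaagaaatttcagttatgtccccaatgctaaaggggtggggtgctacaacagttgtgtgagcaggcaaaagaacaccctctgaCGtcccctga
Slc38a2: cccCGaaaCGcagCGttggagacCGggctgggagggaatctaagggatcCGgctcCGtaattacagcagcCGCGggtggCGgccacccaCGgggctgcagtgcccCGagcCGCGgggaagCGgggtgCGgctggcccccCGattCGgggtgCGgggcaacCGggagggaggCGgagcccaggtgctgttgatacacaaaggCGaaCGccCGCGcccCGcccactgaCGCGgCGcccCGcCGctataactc
The *Slc2a1* stretch holds 13 CpG pairs, more than 68.5% of 32851 promoter windows of the genome. *Slc1a3* holds 2 and *Slc38a2* 30, more than 18.8% and 94.1% of windows. A promoter was given for 63 of the 88 transporters (71.6%), and called and uncalled transporters were not compared in this respect.

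The *Slc1a* family was represented above background by 1 glutamate carrier and 1 neutral amino acid carrier. *Slc1a3* encodes GLAST, the glutamate carrier of radial glia and astrocytes, and had log2 signals of 9.16, 8.83, and 8.64, from 35, 48, and 53 beads. *Slc1a4* encodes ASCT1, which carries alanine, serine, and cysteine, and had log2 signals of 7.76, 7.64, and 7.37. Each gene was above the background level of every array, by a mean of 2.23 and 0.95 on the log2 scale. *Slc1a2*, the main glutamate carrier of the adult forebrain, averaged 6.49 (SD 0.10, n = 3) on the log2 scale and was called on no array. *Slc1a5*, which encodes the glutamine carrier ASCT2, was also called on none, with a mean of 6.46 (SD 0.07, n = 3) over several probes. *Slc1a7* met the threshold on replicate 2 alone (detection p of 0.0353, 0.00641, and 0.0374), and its symbol has also been used for *Slc1a5*, so its identity is uncertain. The same holds for *Slc5a10*, a symbol also used for *Slc5a11*, and *Slc6a5*, also used for *Slc6a2*, both called on no array.

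Sodium-coupled neutral amino acid carriers of the *Slc38a* family had the largest share of calls. *Slc38a2* encodes SNAT2, an importer of small neutral amino acids that rises when amino acids are scarce, and had log2 signals of 9.03, 8.49, and 8.47. They lay a mean of 2.02 above the background level. *Slc38a5*, a glutamine carrier, had log2 signals of 7.61, 7.22, and 7.09. *Slc38a6* had 7.56, 7.47, and 7.33, with an SD of 0.11 (n = 3). *Slc38a8* had 7.86, 7.65, and 7.57. All 12 signals of these 4 genes were above the background level of their array, with a smallest excess of 0.51 on the log2 scale, for *Slc38a5*.

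The other *Slc38a* symbols were called on some arrays or none. *Slc38a10* had log2 signals of 6.75, 6.74, and 6.47 and was called on replicates 1 and 2. *Slc38a3*, a glutamine carrier of liver and astrocytes, had 6.69, 6.68, and 6.45 and was also called on replicates 1 and 2 (detection p of 0.00855, 0.00641, and 0.162). *Slc38a1*, a glutamine carrier of neurons, had 6.61, 6.68, and 6.41 and was called on replicate 2 alone. *Slc38a9*, which senses arginine at the lysosome, had 7.07, 6.95, and 6.69 and was called on replicate 2 alone. *Slc38a4* and *Slc38a11* were called on no array.

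The heavy chain and its light chains did not give the same calls. *Slc3a2*, the heavy chain known as 4F2hc or CD98, had log2 signals of 6.66, 6.74, and 6.50 with detection p-values of 0.0246, 0.00214, and 0.0716, so it met the threshold on replicate 2 alone. It is measured by 1 probe, from 43, 54, and 37 beads. Of the light chains that bind it, *Slc7a6*, which exchanges cationic for neutral amino acids, was called on all arrays, with log2 signals of 7.21, 6.99, and 6.70. *Slc7a8*, a light chain for neutral amino acids, had 7.16, 7.33, and 6.97 and was called on replicates 2 and 3, with a detection p of 0.0541 on replicate 1. *Slc7a7* had 7.07, 7.23, and 6.69 and was called on no array, with detection p-values of 0.0582, 0.0315, and 0.0906. *Slc7a11*, the light chain of the cystine-glutamate exchanger, had a mean of 6.47 (SD 0.07, n = 3) and was not called either. *Slc7a5*, the light chain LAT1, and the heavy chain *Slc3a1* were not analysed here.

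Carriers of the *Slc7a* family that work without a heavy chain move cationic amino acids such as arginine. *Slc7a1*, the widely expressed member, had log2 signals of 6.44, 6.55, and 6.34 and was called on no array. *Slc7a3* had 8.72, 8.23, and 8.16, each at least 1.58 above the background level, but was called on no array, with detection p-values of 0.0334, 0.353, and 0.488. *Slc7a9*, a light chain of kidney and gut, had 6.93, 7.01, and 6.55 and was called on none. *Slc7a14* was called on replicate 1 alone, with log2 signals of 6.62, 6.47, and 6.40, each below the background level of its array.

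In the *Slc6a* family, sodium- and chloride-coupled carriers of neurotransmitters and osmolytes, the called symbols were *Slc6a8* and *Slc6a13*. *Slc6a8*, the creatine carrier, had log2 signals of 7.73, 7.31, and 7.08. *Slc6a13*, a GABA and taurine carrier of liver and meninges, had 7.16, 6.98, and 6.75. Both were above the background level on each array, by means of 0.73 and 0.32. *Slc6a6*, the taurine carrier, had 9.93, 9.88, and 9.52 but met the threshold on replicate 3 alone. *Slc6a15*, a carrier of branched-chain amino acids, was called on replicates 1 and 2. Its log2 signals of 6.67, 6.57, and 6.48 were each below the background level of their array. *Slc6a17* was called on replicate 1 and the dopamine carrier *Slc6a3* on replicate 2, each at a detection p of 0.00748 on that array and above 0.05 on the others. The remaining 12 symbols were called on no array, among them *Slc6a19*, the neutral amino acid carrier of gut and kidney, with a mean of 6.49 (SD 0.07, n = 3).

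Among the monocarboxylate carriers, *Slc16a13* was above background on each array, with log2 signals of 7.66, 7.49, and 7.08. *Slc16a6*, an exporter of ketone bodies, met the detection threshold on all 3 arrays (detection p of 1.4e-05, 0.000426, and 0.00107), but its log2 signals of 6.79, 6.74, and 6.55 were within 0.1 of the background level and fell below it on replicate 3. *Slc16a10*, which carries aromatic amino acids, had 7.07, 6.85, and 6.55 and was called on replicates 1 and 2. The lactate carriers gave little signal. *Slc16a1*, which encodes MCT1, had log2 signals of 6.54, 6.42, and 6.43 with detection p-values of 0.296, 0.679, and 0.237. *Slc16a3*, the lactate exporter MCT4, had 6.71, 6.63, and 6.56 and was called on replicate 3 alone, where its signal lay below the background level. *Slc16a7* (MCT2) had a mean of 6.48 (SD 0.07, n = 3) and was called on none. The 3 proton-coupled *Slc36a* carriers were also called on none.

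Some members of tandem groups differed in their calls, and others were alike in being called on no array. By gene order in RefSeq, *Slc16a13* neighbours *Slc16a11*, *Slc38a2* lies between *Slc38a1* and *Slc38a4*, and *Slc6a13* neighbours *Slc6a12*. In each of these groups 1 gene was called on all arrays. The neighbours *Slc16a11*, *Slc38a4*, and *Slc6a12* were called on no array and *Slc38a1* on 1. Mean log2 signals were 7.41 for *Slc16a13* and 6.41 for *Slc16a11*, and 6.96 for *Slc6a13* and 6.51 for *Slc6a12*. All other neighbouring pairs of members, in the *Slc36a* family and in 2 groups of the *Slc6a* family, were called on no array. Only 15.9% of the members and 20.6% of all symbols were called on all arrays, so these differences are a description only.

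The detection call and the signal parted for some symbols that were not read as having 1 probe. The deposited signal of a symbol is an average over its probes, and 52 members could be read as having 1 probe, the other 36 having several or an unresolved number. Among members with 1 probe, 11 exceeded the background level of all 3 arrays, and all 11 were called. This follows from how that level and the 1-probe class were set. A member whose detection p strayed from that of 1-probe symbols with a like signal was placed among the 36. Call and signal could thus part only there. Among the 36, 7 exceeded it on all arrays and 5 of these were not called on all 3: *Slc6a6*, *Slc7a3*, *Slc7a8*, *Slc7a7*, and *Slc38a9*. *Slc6a6* was at least 2.94 above the background level on each array, with detection p-values of 0.11, 0.168, and 0.00716. Its bead numbers were whole (59, 44, and 44), so its probe number is unresolved. Over all symbols, 3533 with several probes or an unresolved number exceeded the background level on all arrays, and 1844 of them were not called. Which probe of a symbol carried the signal was not tested, so no conclusion is drawn on whether these 5 genes were expressed. In the counts by detection p they stand as not called on all 3 arrays, and in the limma count below as called. Other symbols among the 36 were called on an array where their signal lay below the background level. These were *Slc6a15* on replicates 1 and 2 (-0.02 and -0.09 on the log2 scale) and *Slc7a14* on replicate 1 (-0.07). On replicate 3 they were *Slc16a3* (-0.02) and *Slc16a6* (-0.03).

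**Figure D3:**
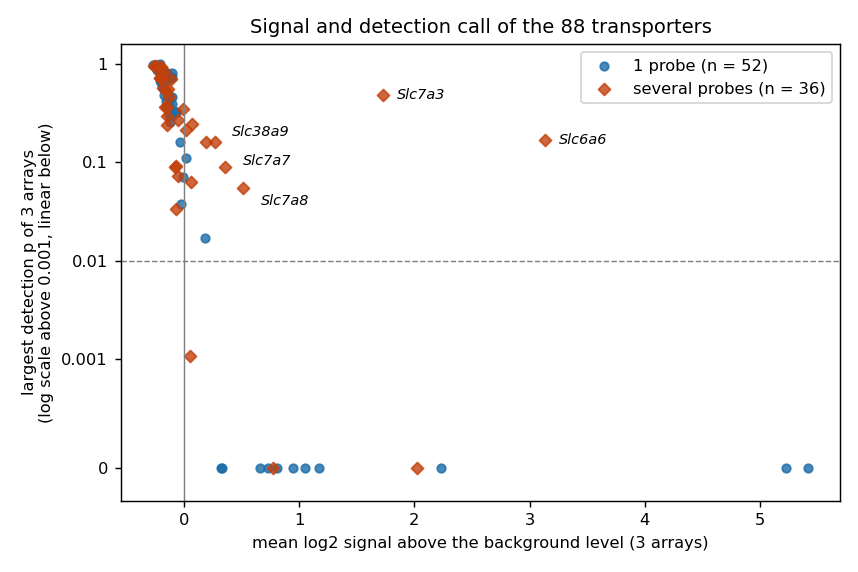
Mean deposited log2 signal above the background level (x axis) and the largest detection p of the 3 arrays (y axis) for the 88 transporters, by probe number. Symbols marked as having several probes include those with an unresolved number. The dashed line marks a detection p of 0.01, and *Slc6a6* (3.14 above background) and *Slc7a3* (1.73) lie above it although their signals are to the right of most called members.

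To give each level an error over arrays, signals were corrected for background, quantile normalized, and compared with the normalized background level of the same array by the one-sided test of limma, adjusted over all 30854 symbols. It called 20 members (22.7%), where 25.7% of all symbols were called. Of these, 13 were among the 14 with a detection call, and *Slc16a6* was not (0.12 above background on the log2 scale, limma adjusted p = 0.737, and 0.0411 to 1 over its alternatives). The other 7 were *Slc6a6* (4.79), *Slc7a3* (3.16), *Slc7a8* (1.29), *Slc7a7* (0.91), *Slc38a9* (0.72), *Slc7a9* (0.47), and *Slc16a10* (0.44), values being normalized log2 levels above background. On this scale *Slc2a3* lay 7.18 and *Slc2a1* 6.99 above background, with single arrays between 6.51 and 7.51. The fit gave every gene the same standard error of 0.15, so its p-values do not reflect the spread of a single gene. Over the alternatives, *Slc2a1* stayed between 5.22 and 7.34 and *Slc2a3* between 5.41 and 7.43.

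The 57 symbols called on no array had mean log2 signals from 6.38 to 8.37 with a median of 6.47, and 53 of them lay below the normalized background level. The upper end of this range is *Slc7a3*. The smallest detection p among the 57 on any array was 0.0128, for *Slc16a4*.

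After normalization the arrays did not rank the called transporters in 1 order. Replicate 1 was the highest array for 6 of the 14, replicate 2 for 3, and replicate 3 for 5, where replicate 1 was the highest for 29.4%, replicate 2 for 29.4%, and replicate 3 for 41.2% of the 6357 symbols called. The median SD over arrays of the 14 was 0.20 on the log2 scale (range 0.06 to 0.32), beside 0.17 for all called symbols. The smallest SDs were those of *Slc6a13* (0.06), *Slc1a4* (0.08), and *Slc16a6* (0.09). *Slc2a1* had the largest, 0.32, with normalized log2 levels of 12.20, 11.78, and 11.57 on replicates 1, 2, and 3. The 14 were read from 29 to 60 beads per array. For *Slc2a1*, the standard error over beads within an array was at most 0.15 on the deposited scale. Its range between arrays was 0.63 after normalization, so the 2 values cannot be compared directly. *Slc5a6* followed (SD 0.32), with levels of 7.24, 7.55, and 6.92, and then *Slc38a2* (SD 0.25), with 8.49, 8.09, and 8.57. Normalized levels of *Slc2a3*, at 11.97, 12.19, and 11.94, differed by 0.25, and its standard error over beads was up to 0.16 on the deposited scale.

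**Figure D4:**
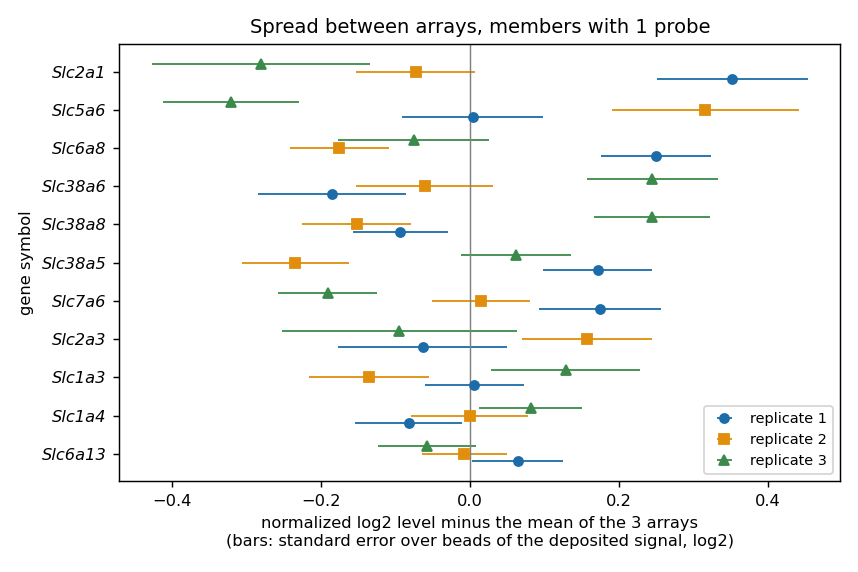
Normalized log2 level of each array minus the mean of the 3 arrays (x axis) for the 11 called transporters with 1 probe, with bars for the standard error over beads of the deposited signal on the log2 scale. *Slc2a1* was highest on replicate 1 and *Slc5a6* on replicate 2. Points are on the normalized and bars on the deposited scale, so their lengths cannot be compared directly.

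Marker levels also differed between the arrays. The 14 visceral endoderm markers had a median normalized log2 level of 8.03, 8.94, and 8.25 on replicates 1, 2, and 3, and their summed level on the log2 scale was 13.52, 13.81, and 13.13. Of the 14 called transporters, *Slc2a3*, *Slc5a6*, and *Slc16a6* were highest on replicate 2 (21.4%, beside 29.4% of all called symbols). *Slc16a6* lies at the background level, so its order of arrays carries little information. The 12 markers of the embryonic region had medians of 6.63, 6.06, and 6.26 and summed levels of 11.62, 11.32, and 11.40, both highest on replicate 1. Of the 14 transporters, 6 were highest on replicate 1 (42.9%, beside 29.4% of all called symbols). *T*, the marker of the primitive streak and notochord, had levels of 10.42, 9.98, and 9.83. The 12 extraembryonic ectoderm markers had summed levels of 11.11, 11.24, and 10.79. The 5 blood markers stayed at background on each array. The part of tissue composition in the spread of the transporters was not tested, and 3 arrays are too few for a correlation.

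Genes that act with these carriers were read from lists. Of 10 partners and regulators of transporters, 6 were called on all arrays (*Pdzk1*, *Slc9a3r1*, *Sgk1*, *Arrdc4*, *Txnip*, and *Nedd4l*) and 4 on none. *Arrdc4* and *Txnip*, arrestin-like proteins that remove glucose carriers from the cell surface, had mean log2 signals of 8.77 and 7.75. *Bsg* (basigin), the partner of MCT1 and MCT4, was called on no array, with log2 signals of 6.55, 6.51, and 6.38. *Emb* (embigin), with several probes or an unresolved number, had 9.04, 8.91, and 7.44 and was called on none.

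Of 18 genes for the first steps of glucose and lactate use, 7 were called on all arrays, *Pfkm*, *Ldha*, *Ldhc*, *Pdk1*, *Pdk3*, *Pdha1*, and *Pdhb*. *Ldha*, which makes lactate from pyruvate, had log2 signals of 13.09, 12.97, and 12.63. Called on 2 arrays were *Pfkl*, with 10.35, 10.00, and 9.69, *Gpi1*, with 9.14, 8.79, and 8.52, and *Pfkp*, with 6.81, 6.72, and 6.63. The hexokinase *Hk1* was called on none, with 6.64, 6.42, and 6.38. *Hk2* and *Ldhb* were not analysed here.

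Of 28 genes of amino acid sensing and the amino acid response, 14 were called on all arrays, among them *Atf4*, the transcription factor of that response, with log2 signals of 8.15, 8.08, and 7.68. Some known targets of *Atf4* in the list, *Asns*, *Psat1*, and *Chac1*, were called as well, with mean log2 signals of 8.50, 10.07, and 7.10. Of others, *Shmt2* met the threshold on 2 arrays, *Trib3* and *Sesn2* on 1, and *Ddit3* and *Psph* on none. These genes are no full tally of its targets. The other called genes of the list, targets or not, were *Ddit4*, *Phgdh*, *Aars*, *Mlst8*, *Rragb*, *Rragc*, *Rragd*, *Lamtor1*, *Lamtor2*, and *Castor1*. Of 24 other carriers of the same substrates, 5 were called, *Slc25a15*, *Slc45a3*, *Slc45a4*, *Slc50a1*, and *Pqlc2*, a lysosomal exporter of cationic amino acids. The counts of these 4 lists stand beside 20.6% of all symbols and are a description only.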

How the data were processed

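The authors deposited, per gene symbol and array, a log2 signal averaged over probes and not normalized between arrays, the mean number of beads, a standard error over beads on the linear intensity scale, and a detection p-value. Partek is named for their analysis, and a genome build is not given in the sources used here. No column was left without a sample. In all, 21986 symbols were read as having 1 probe. Their bead numbers were whole and their detection p-values were multiples of 1 in 936 on all arrays, within 0.002. On each array, their detection p also lay within 0.005 of the running median for symbols with a like signal. Other symbols were read as having several probes or an unresolved number.

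Genes were called at a detection p under 0.01 on all 3 arrays. The p threshold is that of the study's legend, and the requirement of all 3 arrays was set here. For levels, signals were corrected with normexp fitted on symbols with 1 probe, raised by an offset of 16, and quantile normalized. limma (lmFit, eBayes) tested the level minus the background level of the array, one-sided, at an adjusted p of 0.05 (Benjamini-Hochberg). The test was checked on simulated data. Standard errors over beads were put on the log2 scale as the error divided by the signal and by the natural logarithm of 2.

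Members, lists, and tests were chosen with earlier results of these data known. Named are the members called on any array, well-known carriers of other organs, those with the largest and smallest SD, and called genes of the other lists. *Slc1a5*, *Slc7a1*, *Slc7a3*, *Slc7a7*, *Slc7a11*, *Slc16a1*, *Slc16a4*, *Slc38a11*, the chromosomal neighbours, and uncalled genes of the other lists were named after their values were seen. So were *Slc5a10*, *Slc5a11*, *Slc6a2*, and *Slc6a5*. Older symbols were matched through RefSeq (GRCm38.p6). A comparison of protein sequences was not run. Python 3.11.15, numpy 2.4.6, pandas 2.3.3, R 4.3.3, and limma 3.58.1 were used.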

Additional observations from a re-analysis of the deposited data

How the results depend on the processing

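The count of 14 of 88 transporters was 17 at a detection p under 0.05, 14 at 0.005, 20 when 2 arrays sufficed, and 31 when 1 array sufficed. Of all symbols, 24.7%, 19.3%, 25.6%, and 33% were called by these rules. When 1 array sufficed, the share of members was thus slightly above that of all symbols. The count was 11 of the 52 members with 1 probe (21.2%, beside 20.8% of all such symbols) and 20 by limma (22.7%, beside 25.7%). It was 18 with a signal above background on every array (26.3% of all symbols), a setting chosen after the data had been seen. Without a replicate the count was 14 to 15 when replicate 1 or 2 was left out (21.1% and 21.6% of all symbols). It was 19 without replicate 3 (24.1% of all symbols), which added *Slc16a10*, *Slc2a2*, *Slc38a10*, *Slc38a3*, and *Slc6a15*. The limma count of 20 was 17 to 20 under other normalizations, offsets, backgrounds, and a filter on dim symbols, and 18 to 23 without a replicate. *Slc16a10* and *Slc7a9* lost the limma call in 5 of 9 and 4 of 8 alternatives, and *Slc16a6* gained it in 1 of 9, without replicate 3, which also added *Slc16a9* and *Slc2a2*. The filter left *Slc7a3*, *Slc7a7*, and *Slc7a9* untested. The other 18 named members kept their side of the threshold, and none of the 21 changed sign.

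Among the other lists, the carriers of the same substrates (5) became 8 at a detection p under 0.05, 3 at 0.005, 10 on at least 1 array, and 8 with a signal above background on every array. The genes of glucose and lactate use (7) became 11 on at least 1 array, 4 among symbols with 1 probe, and 11 with a signal above background. The partners (6) and the amino acid response (14) stayed within 1.5 times under every alternative run. Apart from the rules that ask for fewer arrays or fewer symbols, the cause was not tested. Without a replicate, the carriers gave 5 to 7, the genes of glucose and lactate use 7 to 9, the partners 6, and the amino acid response 14 to 15. No paired analysis was possible because all 3 arrays form 1 group. Genes near the negative controls cannot be called at this signal over background.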
